A study of Rattus norvegicus with 21 samples.

Results

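The 7 genes Scn1a, Scn2a, Scn3a, Scn8a, Scn2b, Scn3b and Scn4b, which encode subunits of voltage-gated sodium channels, were followed over 21 single rat hippocampal neurons. They were chosen by gene symbol out of 16245 symbols in a table of 34976 rows, and each matched 1 row. All neurons came from Wistar rats carrying a vesicular GABA transporter (VGAT)-Venus transgene, a fluorescent reporter of inhibitory neurons, were taken at embryonic day 18, and were patched, recorded and aspirated after 17 days in vitro. The groups were 5 pyramidal and 6 GABAergic neurons grown together with glial cells, 5 GABAergic neurons from cultures purified with the antimitotic agents FdU and U at 5 µM, and 5 GABAergic neurons from purified cultures that also received oligodendrocyte conditioned medium (OCM) from day 3 in vitro. The conditioned medium came from oligodendrocyte cultures of neonatal rat cortex. Exposure to the antimitotic agents and the loss of glial cells cannot be told apart, because the purified groups had both. Since the labels tie no neuron to an animal or a culture, every group counts as 1 sample here. For this reason the values carry neither p-values nor standard errors, and each SD or range describes the spread between cells, which may be technical.

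Voltage-gated sodium channels carry the inward current of the upstroke of the action potential. A large alpha subunit forms the pore, and smaller beta subunits, which span the membrane once, alter gating and anchor the channel at the axon initial segment and at nodes of Ranvier. Scn1a encodes the alpha subunit best known from fast-spiking inhibitory neurons, Scn2a the one best known from excitatory neurons and unmyelinated axons, Scn3a one that is abundant in the embryonic brain, and Scn8a the one that dominates mature initial segments and nodes. Scn2b and Scn4b encode beta subunits that are linked to the alpha subunit by a disulfide bond, whereas the product of Scn3b binds without such a bond. In the rn6 coordinates of the deposited table, Scn3a (chr3:51532627-51643140), Scn2a (chr3:51687906-51822008) and Scn1a (chr3:52388807-52510507) lie near each other on chromosome 3 and Scn8a on chromosome 7 (chr7:142575629-142684114). The beta genes Scn3b (chr8:44136496-44159010), Scn2b (chr8:49418996-49427550) and Scn4b (chr8:49441106-49456279) lie on chromosome 8.

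Upstream sequences were available for 5 of the 7 genes in RefSeq promoter entries of build GRCr8. The 250 bases before the annotated start are shown for 3 alpha genes, because Scn2a and Scn3a were each above 0 in 19 of the 21 cells and Scn8a in 8. Capitals mark the GC box GGGCGG, searched on both strands. They lie at chr3:70710706-70710955 (plus strand) for Scn2a, chr3:70666199-70666448 (minus strand) for Scn3a and chr7:133860977-133861226 (plus strand) for Scn8a, each written 5′ to 3′ on the gene's strand.
Scn2a: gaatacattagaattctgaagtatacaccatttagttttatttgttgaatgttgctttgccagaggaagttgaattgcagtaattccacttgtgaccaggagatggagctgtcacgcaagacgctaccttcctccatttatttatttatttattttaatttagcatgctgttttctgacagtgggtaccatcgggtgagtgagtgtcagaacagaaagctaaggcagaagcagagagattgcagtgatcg
Scn3a: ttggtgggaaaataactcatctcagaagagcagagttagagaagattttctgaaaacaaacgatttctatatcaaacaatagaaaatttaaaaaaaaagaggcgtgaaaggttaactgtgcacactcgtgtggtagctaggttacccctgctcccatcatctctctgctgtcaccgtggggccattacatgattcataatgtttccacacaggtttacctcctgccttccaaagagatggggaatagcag
Scn8a: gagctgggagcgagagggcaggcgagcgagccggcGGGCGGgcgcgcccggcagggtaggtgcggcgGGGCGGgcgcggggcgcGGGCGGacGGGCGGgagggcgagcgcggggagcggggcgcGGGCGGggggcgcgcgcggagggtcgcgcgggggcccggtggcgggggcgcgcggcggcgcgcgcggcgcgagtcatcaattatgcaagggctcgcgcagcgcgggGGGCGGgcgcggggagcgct
The Scn8a window was 86.0% G or C with 53 CG pairs, a larger number than in 99.98% of 33469 rat promoter windows of the same length, and it held GGGCGG 6 times. Scn2a, with 39.6% G or C, and Scn3a, with 41.6%, had 4 CG pairs each and no GGGCGG. The median over all windows was 51.2% and 5 pairs, and 30.5% of windows held GGGCGG. Among the beta genes, the Scn4b window had 71.6% G or C with 21 CG pairs and the Scn2b window 38.8% with 1, both without GGGCGG. Neither TATAAA, held by 12.9% of all windows, nor TGACGTCA, held by 1.59%, was found on either strand in the 5 windows. These matches describe the sequence only.

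The cells held 1817671 to 25160911 recovered reads. Values below are the authors' DESeq2-normalized read counts, which have no upper limit and were not divided by gene length, so a level is compared only with the same gene in other cells. Each cell is named by its group and a number within it that carries no order. Of the 13 neuronal markers, 12 or 13 had reads in every group. Gad1, an enzyme of GABA synthesis, was 0 in all 5 pyramidal neurons and above 0 in 15 of the 16 GABAergic ones. The exception was purified cell 4, which had 14087 for Gad2, the other such enzyme. In pyramidal neurons Gad2 was 924 and 714 in cells 1 and 2 and 0 in cells 3 to 5. Sums over 8 GABAergic markers reached 927 in pyramidal neurons. Those over 8 glutamatergic markers reached 357 in glia-cultured GABAergic neurons, so the split was not complete. Slc17a7, the vesicular glutamate transporter of hippocampal pyramidal cells, was 0 in every GABAergic neuron and in pyramidal cell 3. Pyramidal cells 3 and 4 carried 278859 and 95386 of Mbp, a myelin gene, so pyramidal results are also given without them. The titles of the samples begin with unexplained letters: 2 glia-cultured GABAergic cells are titled ech, 3 P and 1 S, the purified cells are 4 S and 1 P, and all OCM-treated cells are S. Pyramidal cells 1 and 2 are titled S and the other pyramidal cells P.

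Scn1a was the 1 member whose glia-cultured and purified GABAergic cells did not overlap. All 6 glia-cultured GABAergic neurons carried it, between 1157 and 2266 with a median of 1634 (mean 1644, SD 462). Purified GABAergic neurons had 0, 0, 0, 10.3 and 1.87 in cells 1 to 5, which rests on 8 reads in all (95% Poisson interval 3.45 to 15.8, counting error only). With OCM, the 5 cells had 0, 1292, 4.28, 312 and 2388 (mean 799, SD 1034). The glia-cultured cells thus lay above every purified cell, whereas the OCM-treated cells ran from 0, as in purified cells, to above the highest glia-cultured cell. Pyramidal neurons had 170 in cell 1 and 0 in the other 4. OCM-treated cell 3 held 7 reads, so 3 of the 5 OCM-treated cells had at least 10 reads of Scn1a.

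Scn2a was present in every GABAergic neuron of all 3 cultures. Its values with OCM were 4198, 4486, 3338, 3919 and 2734 (mean 3735, SD 702), the narrowest relative spread of any group. Purified cells had 4006, 5.42, 2358, 2551 and 4554 (mean 2695, SD 1771), where the value of cell 2 came from 4 reads. Glia-cultured GABAergic cells ran from 386 through a median of 1773 to 5095 (mean 2358, SD 1967). The ranges of the 3 GABAergic groups overlapped, and the lowest glia-cultured cells, 386 and 667, were the 2 titled ech. Among pyramidal neurons cell 1 had 10680, the highest Scn2a value of all 21 cells, cells 2 and 4 had 1699 and 1329, and cells 3 and 5 had 0.

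Scn3a was uneven from cell to cell. Purified neurons had 1832, 0, 241, 3674 and 5.60 (mean 1151, SD 1604). OCM-treated cells had 1605, 203, 9.17, 131 and 107 (mean 411, SD 671). Glia-cultured GABAergic cells stayed between 9.98 and 302, with a median of 144 (mean 146, SD 122). A high level was therefore found in 2 purified cells and 1 OCM-treated cell, and the other cells of those groups lay within or below the glia-cultured range. Pyramidal neurons had 11.8, 153, 4.4, 2.49 and 0.

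Scn8a was detected in GABAergic neurons with glia or with OCM and in none of the purified cells. The glia-cultured values ran from 0 in cell 6 through a median of 642 to 1872 (mean 739, SD 774), with 5 of 6 cells above 0. OCM-treated cells 1 and 2 had 882 and 613, and the other 3 had 0. In purified cells all 5 values were 0, and 0 of 14191 alpha reads allows a share of Scn8a of up to 0.0211% at the floor of 3 reads (0.0260% as the exact 95% upper limit), for counting error only. Pyramidal cell 3 had 14.7, from 10 reads, and the other pyramidal cells had 0. Presence thus varied within each group in which the gene was seen, and the glia-cultured and OCM-treated ranges overlapped.

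**Figure D1:**
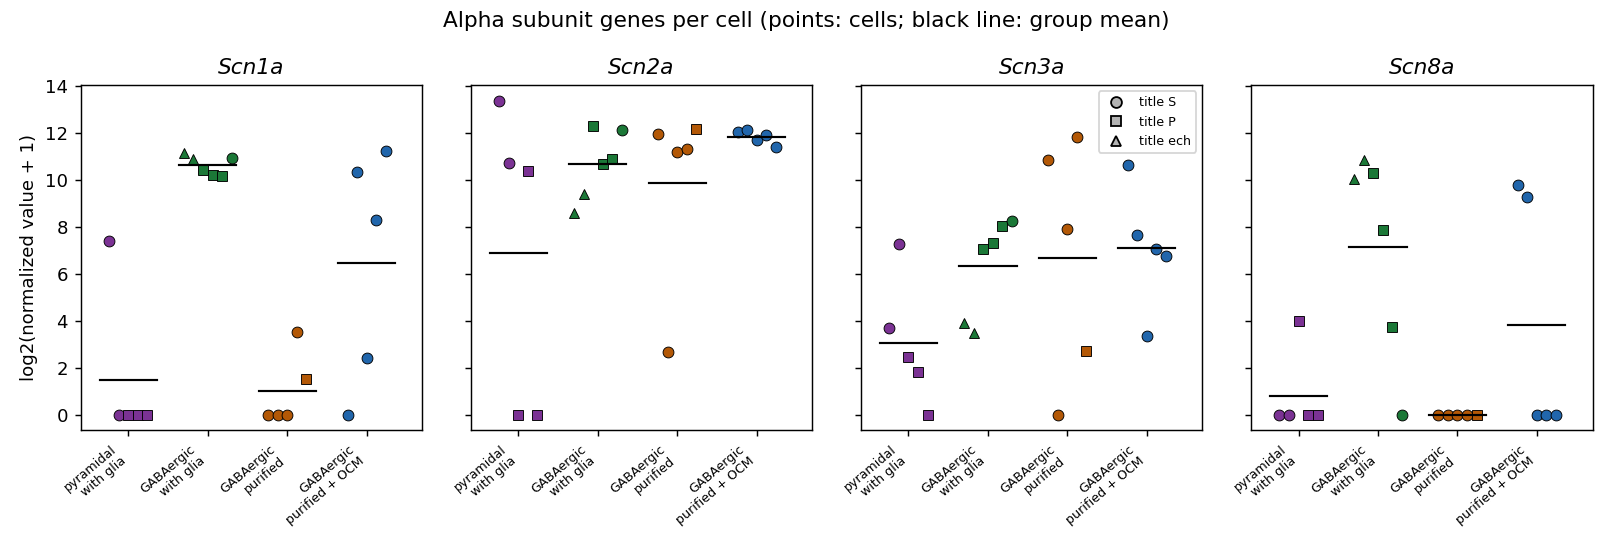
Levels of the 4 alpha genes in each cell, as log2 of the normalized value plus 1 on the vertical axis. Points are cells, marker shape gives the first letters of the sample title, and the black line is the mean of the plotted values. Scn1a lies between 1157 and 2266 in the 6 glia-cultured GABAergic cells, above all 5 purified cells.

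As a share of the summed normalized values of the 4 alpha genes, Scn1a made up 33.6% in glia-cultured GABAergic neurons, 15.2% with OCM, 0.0633% in purified neurons and 1.21% in pyramidal neurons. In pooled reads the same shares were 37.9% (exact Clopper-Pearson 95% interval 37.5 to 38.3, of 50070 reads), 11.4% (11.1 to 11.7, of 39968), 0.0564% (0.0243 to 0.111, of 14191) and 0.963% (0.796 to 1.15, of 11944). These intervals cover counting error only and are far narrower than the spread between cells. With any 1 cell left out the Scn1a share ran from 29.7% to 39.5% with glia, from 7.66% (without cell 5) to 20.5% with OCM, from 0.0143% (without cell 4) to 0.0909% in purified neurons, and from 0% (without cell 1) to 1.39% in pyramidal neurons. Scn2a held 48.2%, 71.2%, 70.0% and 97.5% of the summed values in the same order of groups. Scn3a held 2.98%, 7.84%, 29.9% and 1.22%, and Scn8a 15.1%, 5.70%, 0% and 0.104%. Single cells moved these smaller shares too: Scn3a with OCM was 2.31% without cell 1, below the glia-cultured share, and in purified neurons it was 16.0% without cell 4. The Scn3a share in pyramidal neurons was 5.00% without cell 1 and 0.153% without cell 2. Scn8a was 3.14% with OCM without cell 1, and in pyramidal neurons 0.458% without cell 1 and 0% without cell 3. Shares follow reads, so a long transcript weighs more than a short one, and only the share of 1 gene is compared between groups.

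Within single cells the balance of Scn1a against Scn2a does not depend on scaling between cells. Scn1a as a percentage of Scn1a plus Scn2a was 85.4, 73.8, 21.4, 41.9, 38.0 and 30.8 in glia-cultured GABAergic cells 1 to 6. In purified cells it was 0, 0, 0, 0.403 and 0.0409, and in OCM-treated cells it was 0, 22.4, 0.128, 7.37 and 46.6. Every glia-cultured cell thus exceeded every purified cell, and 2 of the 5 OCM-treated cells reached the glia-cultured range. The purified cell 2 value rests on 4 reads (exact 95% interval 0 to 60.2%) and is uninformative, while the other purified cells have upper limits of 0.114, 0.428, 0.875 and 0.148%.

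The 2 cells titled ech had the most Scn1a-weighted and Scn8a-weighted alpha profiles of the glia-cultured group. Scn1a was 60.9% and 42.5% of their alpha sum, and Scn8a 28.3% and 42.2%. The other 4 cells of the group ran from 17.6% to 36.9% for Scn1a and from 0 to 16.1% for Scn8a. Without the 2 cells the group share of Scn1a was 27% and that of Scn8a 7.13%. The labels do not explain the title letters, and their part in these shares was not tested.

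For Scn3a, the share of the alpha sum within a cell was 31.4, 0, 9.28, 58.9 and 0.123% in purified cells, against 24.0, 3.08, 0.273, 3.01 and 2.05% in OCM-treated cells. In glia-cultured cells it ran from 0.225% to 7.87%. The 2 purified cells and 1 OCM-treated cell with the highest levels of this embryonic subunit had its highest shares among GABAergic cells. Each share is taken from the same value as the level, so this is not a separate observation. Pyramidal cell 3 had 13 alpha reads and purified cell 2 had 4, so their shares are poorly determined. Pyramidal cell 5 had 0 alpha reads and no share.

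**Figure D2:**
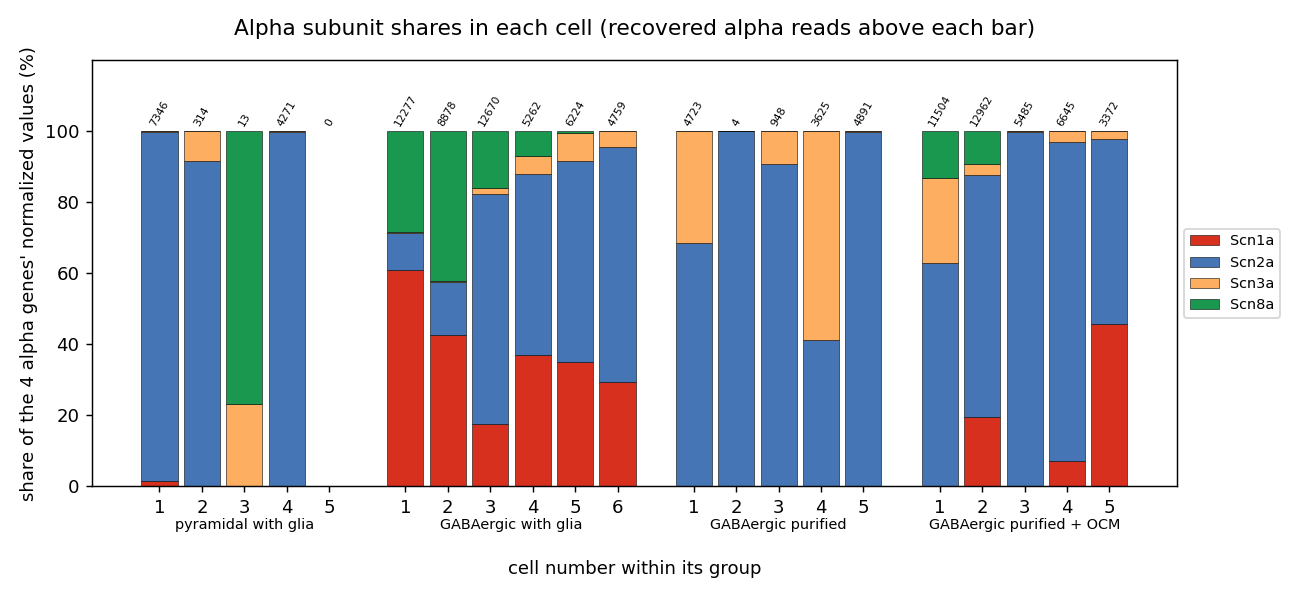
Share of each alpha gene in the summed normalized values of Scn1a, Scn2a, Scn3a and Scn8a (vertical axis, %), 1 bar per cell, grouped by culture, with the number of recovered alpha reads above each bar. Scn1a takes 17.6% to 60.9% of the bar in the 6 glia-cultured GABAergic cells and at most 0.166% in purified cells. Pyramidal cell 5 has 0 alpha reads and no bar.

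The beta genes were detected in fewer cells than Scn2a or Scn3a. Scn2b was above 0 in 7 of 21 cells. Glia-cultured GABAergic cells ran from 0 through a median of 93.9 to 1042 (mean 348, SD 472), with the highest values in the 2 cells titled ech. All 5 purified cells were at 0, and OCM-treated cells 1 and 2 had 10.5 and 10.2 with 0 in the other 3. Pyramidal cell 5, the cell with 0 alpha reads, had 1888 of Scn2b, and the other pyramidal cells had 0.

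Scn3b was above 0 in 8 cells and was most frequent in pyramidal neurons, with 745, 661, 0, 0 and 1531 in cells 1 to 5 (mean 587, SD 635). The 2 pyramidal cells without it were cells 3 and 4, those with Mbp. Among GABAergic neurons it was found in glia-cultured cells 5 and 6 (38.9 and 990), purified cell 1 (199) and OCM-treated cells 2 and 5 (25.9 and 516). Scn4b was found in glia-cultured GABAergic cells 2 and 4 alone, at 1502 and 485, and was 0 in the other 19 cells. Both Scn2b and Scn4b were thus at 0 in all purified cells.

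Summed over the 3 beta genes and divided by the sum of the 4 alpha genes, the ratio of group means was 0.343 in pyramidal neurons, 0.174 in glia-cultured GABAergic neurons, 0.0215 with OCM and 0.0103 in purified neurons. The beta sums averaged 965, 850, 113 and 39.8, and the alpha sums 2813, 4888, 5245 and 3848. In the purified group 1 cell of 5 held a beta read, and in the OCM-treated group 3 of 5 did. The pyramidal ratio was 0.379 without cells 3 and 4. Its value without cell 5 was 0.10 and without cell 1 was 1.27, so 1 cell decides it. The OCM-treated ratio was 0.00222 without cell 5, below the purified value, and the purified ratio was 0 without cell 1. In glia-cultured GABAergic neurons the ratio was 0.110 without cell 2 and 0.0804 without both cells titled ech.

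Other sodium channel alpha genes outside the 7 were read for detection. Scn9a was above 0 in 14 cells at no more than 204, and Scn7a was found in 2 glia-cultured GABAergic cells at 721 and 77.9. Scn4a, Scn10a and Scn11a were above 0 in 3, 1 and 2 cells at no more than 41.3.

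**Figure D3:**
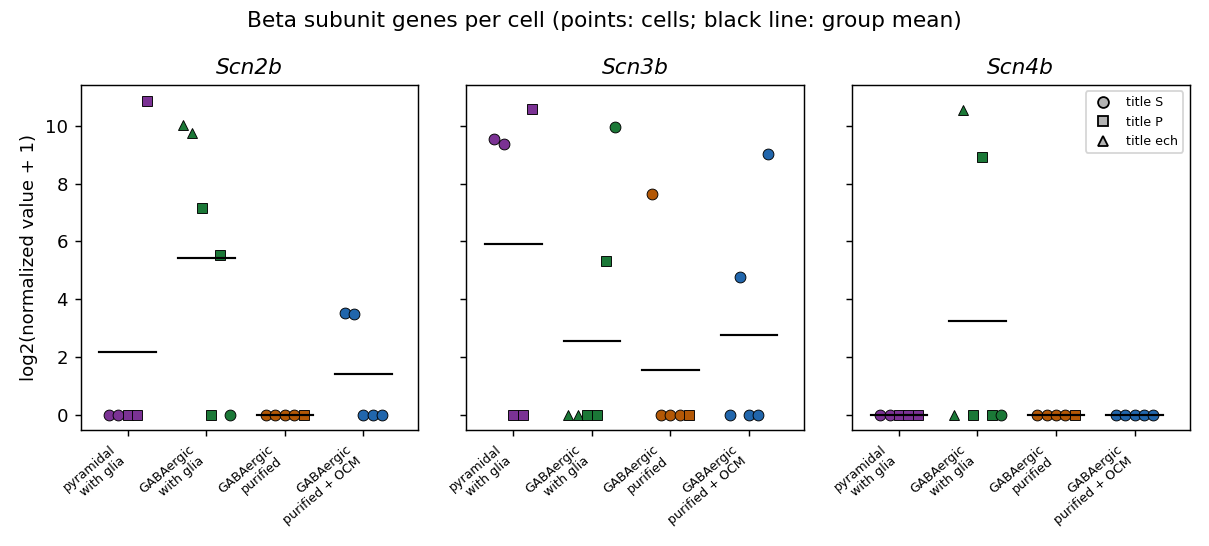
Levels of Scn2b, Scn3b and Scn4b in each cell, as log2 of the normalized value plus 1. Points are cells, marker shape gives the title letters, and the black line is the mean of the plotted values. All 5 purified cells are at 0 for Scn2b and Scn4b, and 4 of them for Scn3b.

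Counted per cell, 5, 6, 5, 5, 6 and 4 of the 7 genes were above 0 in glia-cultured GABAergic neurons (mean 5.17). Purified neurons had 3, 1, 2, 3 and 3 (mean 2.4), OCM-treated neurons 4, 6, 3, 3 and 4 (mean 4.0) and pyramidal neurons 4, 3, 2, 2 and 2 (mean 2.60). Every glia-cultured cell had more of these genes than every purified cell. In 1 random thinning of all cells to 1817671 reads, the count of 1 cell differed, that of pyramidal cell 3, from 2 to 1. Detection over all genes differed too, and thinned cells had 3609 to 8188 genes above 0 with glia, 2539 to 3808 when purified, 3765 to 5683 with OCM and 2447 to 5006 in pyramidal neurons. The part of this wider difference in detection in the sodium channel counts was not tested.

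Detection of the members was nested in part. All 13 cells with Scn1a also had Scn2a and Scn3a, and all 8 cells with Scn8a had Scn3a. Scn8a and Scn2b were found together in 6 cells, with Scn8a alone in 2 and Scn2b alone in 1. Scn3b and Scn4b were never in the same cell, but they were above 0 in only 8 and 2 cells, so this says little. Scn2a and Scn3a were each above 0 in 19 cells, which leaves 2 cells each in which they could be missing.

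**Figure D4:**
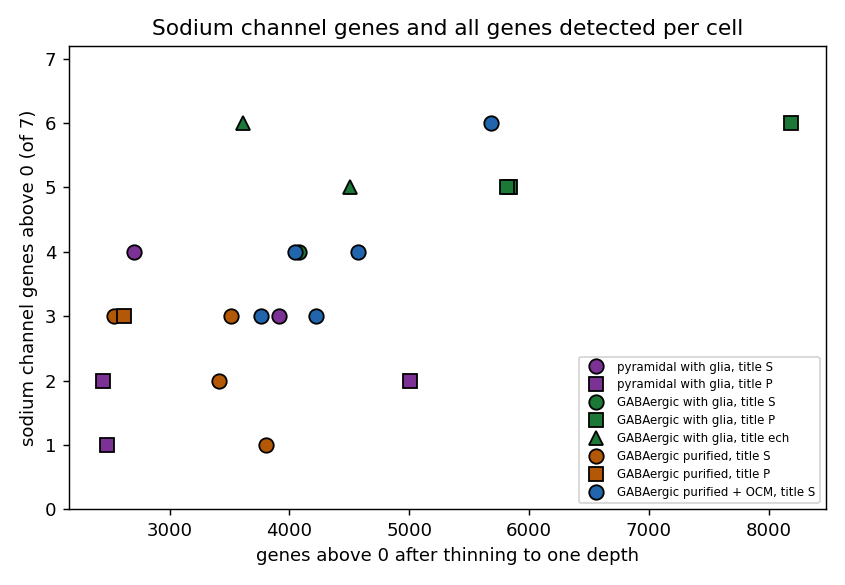
Number of the 7 sodium channel genes above 0 in each cell (vertical axis) against the number of all genes above 0 (horizontal axis). Both were counted after every cell was thinned to 1817671 reads. Points are cells, coloured by group, with marker shape for the title letters. Glia-cultured GABAergic cells hold 4 to 6 of the 7 genes and purified cells 1 to 3.

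The groups were then compared on the mean of log2 of the value plus 1, for genes above 0 in at least 3 cells of the pair, and a difference of at least 1, or 2-fold, was counted as higher or lower. On this scale a difference largely follows in how many cells a gene was detected. Where a gene had reads in at least 3 cells of 1 group and fewer in the other, it passed through the first group alone, which favours a higher value there, so counts of members are descriptions. The 4 comparisons share groups and are therefore not independent of each other.

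Purified GABAergic neurons were set against glia-cultured ones, from which they differ in glial cells and antimitotic exposure together. Of the 6 members that passed the filter, 4 were lower and 0 higher. Of those 4, Scn1a, Scn8a and Scn2b passed through the glia-cultured cells alone. Over all 6302 genes compared, 64.4% were lower and 11% higher by this rule. The members' median difference was -3.21, or -4.37 with the members that are 0 in purified cells at their bound, against -2.13 over all genes. Scn1a had the lowest value, -9.63 (-10.26 to -9.38 with any 1 cell left out), and 0.349% of genes lay below it. Its mean was 675-fold lower in purified cells, a value that rests on 8 reads and was 3526-fold without purified cell 4. It was the 1 member whose cells did not overlap with the lower values in purified cells, a separation seen for 1.51% of genes, and 0 members were separated with higher values, as were 0.159% of genes. The mean of Scn8a was at least 449-fold lower, that of Scn2b at least 211-fold lower and that of Scn4b, which missed the filter, at least 201-fold lower, against a floor of 3 reads over the group. These bounds use all cells and shrink when 1 glia-cultured cell is left out. The glia-cultured mean of Scn8a went from 739 to 513 without cell 2, and that of Scn2b from 348 to 209 without cell 1. That of Scn4b went from 331 to 96.9 without cell 2.

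Scn2a was not called in this comparison, with -0.80 on the log2 scale and a mean 1.14-fold higher in purified cells, which was 0.946 of the glia-cultured mean without purified cell 5. The sign turned when purified cell 2 was left out, to 0.99, and the value passed -1 without glia-cultured cell 1 or 2 or any of the other purified cells, the lowest being -1.37. Scn3a was at 0.34, with a mean 7.89-fold higher in purified cells (3.57-fold without purified cell 4), and was 2.00 without purified cell 2, 1.32 without purified cell 5 and -0.99 without the 2 cells titled ech. Its direction therefore depends on single cells. Scn3b was at -1.02 and went to -0.63 without purified cell 2, 3, 4 or 5. Without glia-cultured cell 5 or 6 it was -0.46 or 0.46 and had reads in too few cells to pass the filter, so its direction rests on single cells.

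OCM-treated neurons against purified ones, which asks what the conditioned medium adds without glia, had 3 of the 4 members that passed the filter higher and 0 lower. Over all 5143 genes compared, 56.0% were higher and 16.4% lower. The members' median of 1.60 lay beside 1.40 for all genes. Scn1a had the largest difference, 5.45 (4.25 to 7.06 after leaving out single cells). Of all genes 91.4% lay below it, and it had a mean 328-fold higher with OCM (165-fold without OCM-treated cell 5, 1714-fold without purified cell 4). It passed the filter through the OCM-treated cells alone. Its cells overlapped, because OCM-treated cell 1 had 0, and 0 members were free of overlap. Over all genes 0.817% were, with higher values, and 0.233% with lower ones.

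Scn2a was higher by 1.98 with OCM, but this call rested on purified cell 2, without which the difference was 0.18. Scn3b was higher by 1.22 and went to 0.84 without purified cell 2, 3, 4 or 5. Without OCM-treated cell 2 or 5 it was 0.73 or -0.34 and missed the filter. Scn3a differed by 0.43 on the log2 scale, while its mean was 2.80-fold lower with OCM (10.2-fold without OCM-treated cell 1, 1.26-fold without purified cell 4), so the direction turns with the scale. It was -1.24 without purified cell 2 and passed 1 without purified cell 1 (1.47), purified cell 4 (1.72) or OCM-treated cell 3 (1.37). Scn8a and Scn2b were above 0 in 2 cells and missed the filter. Their means were at least 182-fold and at least 2.51-fold higher with OCM. Both bounds shrink without OCM-treated cell 1, where the mean went from 299 to 153 for Scn8a and from 4.13 to 2.54 for Scn2b. Scn4b was 0 in both groups.

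OCM-treated neurons were set against glia-cultured GABAergic ones, from which they differ in glial cells, medium and antimitotic exposure together. Of the 6 members that passed, 3 were lower and 1 higher, against 44.4% and 20.3% of 6772 genes. The members' median was -1.56 and that of all genes -0.72. Scn1a was at -4.19, Scn2b at -4.01 and Scn8a at -3.32, with means 2.06-fold, 84.2-fold and 2.47-fold lower. Leaving out single cells, these folds ran from 1.65 to 4.09 (without OCM-treated cell 5), from 50.6 (without glia-cultured cell 1) to 136.7 (without OCM-treated cell 1), and from 1.71 to 4.82 (without OCM-treated cell 1). Scn8a and Scn2b passed the filter through the glia-cultured cells alone. The 0 members without overlap compare with 0.517% of all genes with lower and 0.177% with higher values. Scn2a was the member called higher, at 1.18. It was 0.77 and 0.92 without glia-cultured cell 1 or 2, and 0.34 without both. Among cells titled S, where glia-cultured cell 6 alone stands for its group, it was -0.28. Scn4b, which missed the filter, had a mean at least 356-fold lower with OCM. This bound shrinks without glia-cultured cell 2, where the glia-cultured mean went from 331 to 96.9.

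In the same pair, Scn3a was at 0.76 and Scn3b at 0.21, neither past the bound. Scn3a passed it without glia-cultured cell 5 (1.11) or 6 (1.15) or OCM-treated cell 3 (1.70), and was -0.56 without the cells titled ech. Scn3b was 1.69 without glia-cultured cell 6 and -1.36 without OCM-treated cell 5. Both therefore have no stable direction over these cells.

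Pyramidal neurons against GABAergic neurons of the same glia-containing cultures had 5 of the 6 members that passed lower and 1 higher, against 64.2% and 13.3% of 6571 genes. Scn1a, Scn8a and Scn2b passed through the GABAergic cells alone, and Scn3b through the pyramidal cells. The members' median was -3.53 and that of all genes -2.05. The 13 neuronal markers had a median of -3.55, with 11 lower and 0 higher. Scn1a was at -9.15 (-10.64 to -8.78 after leaving out single cells), with a mean 48.4-fold lower that rests on the 1 pyramidal cell with reads, and was the 1 member without overlap, as were 1.84% of genes with lower values and 0.243% with higher ones. Scn8a was at -6.34, Scn3a at -3.29, Scn2a at -3.77 and Scn2b at -3.23. The mean of Scn2a was 1.16-fold higher in pyramidal neurons, and that of Scn2b 1.09-fold higher, so both directions turn with the scale. The higher means rest on 1 pyramidal cell each: without cell 1 the mean of Scn2a was 3.12-fold lower, and without cell 5 that of Scn2b was 0. Scn4b had a mean at least 93.6-fold lower, a bound that shrinks without GABAergic cell 2, where the GABAergic mean went from 331 to 96.9. Scn3b was the member higher in pyramidal neurons, at 3.35, and its cells overlapped.

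Without pyramidal cells 3 and 4, 5 members were lower and 1 higher as before, the median was -2.65, Scn1a was at -8.16 and Scn3b at 7.29. When cells titled S alone were compared, pyramidal cells 1 and 2 against glia-cultured cell 6 alone, Scn3b was at -0.50. Astrocyte marker sums ran from 789 to 67323 in pyramidal cells and from 169 to 3346 in glia-cultured GABAergic cells, with 8 of 9 markers having reads in each group. Oligodendrocyte marker sums ran from 0 to 322190 and from 0 to 1352, with 8 and 5 of 10 markers. Microglial sums reached 26818 against 1.87, with 5 and 1 of 8 markers, and vascular and fibroblast sums 23326 against 322, with 3 of 6 markers in each group. The part of such RNA in the pyramidal differences was not tested.

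**Figure D5:**
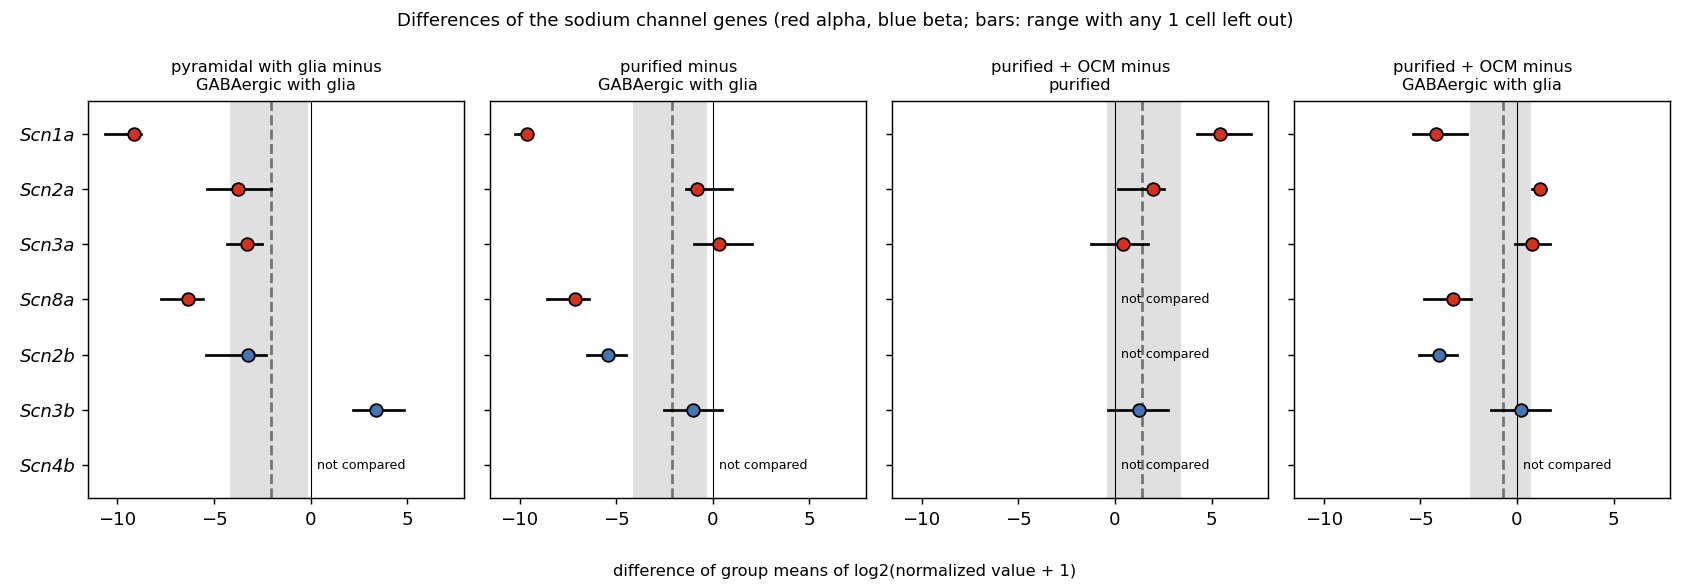
Difference of group means of log2(normalized value + 1) for each gene (horizontal axis) in the 4 comparisons. Points are alpha genes in red and beta genes in blue, bars give the range with any 1 cell left out, the dashed line is the median and the grey band the range between the quartiles of all genes compared, and genes that missed the filter are written as not compared. Scn1a is at -9.15, -9.63, 5.45 and -4.19 from left to right.

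Markers of cell identity differed between the GABAergic groups as well. The 13 neuronal markers had median differences of -1.26 in purified against glia-cultured, 0.70 in OCM-treated against purified and -0.94 in OCM-treated against glia-cultured neurons. Glial marker sums in purified cells reached at most 1538 for astrocytes, 857 for oligodendrocytes and 106 for microglia, against 1226, 9.16 and 0.509 with OCM, and the defining markers Mbp and Slc17a7 were 0 in all purified cells. GABAergic marker sums had medians of 24736 in purified, 49398 in OCM-treated and 73654 in glia-cultured cells. Their ranges overlapped, at 21196 to 72883, 24163 to 84762 and 25988 to 123811. Not every marker followed this order: Slc32a1 was at 0.22 in purified against glia-cultured and at -0.54 in OCM-treated against purified cells. Sst, the marker of somatostatin interneurons, was 243977 in purified cell 5, 325053 in OCM-treated cell 1 and 234564 in OCM-treated cell 5. Those cells had 1.87, 0 and 2388 of Scn1a, so high Sst was seen with and without it. Other interneuron markers differed between the groups. Reln was 4608, 10623, 10028.5, 6811 and 244 in purified cells 1 to 5. It ran from 0 to 2399 with glia and from 0 to 1078 with OCM. Cck was 19464 and 28143 in purified cells 1 and 2 and at most 187 with glia. It was 0 in the other purified and all OCM-treated cells. Pvalb was 885 and 1138 in glia-cultured cells 4 and 5, and far lower or 0 in the other GABAergic cells. The part of interneuron type in the differences was not tested.

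Genes whose products bind or modify sodium channels were read from a list of 22 partners, of which 20 were in the table. Between purified and glia-cultured GABAergic neurons 13 of the 15 that passed the filter were lower and 0 higher, with a median of -2.26. The lowest was Nedd4, a ubiquitin ligase of membrane channels, at -7.07, and the highest Prrt2, a synaptic protein that binds sodium channels, with a difference of -0.0015. With OCM against purified cells 7 of 14 were higher and 1 lower (median 1.06), from Cntn2, an axonal adhesion molecule, at 4.78 to Prrt2 at -1.52. With OCM against glia 3 of 19 were higher and 12 lower (median -1.40), from Cntn2 at 2.94 to Csnk2a2, a catalytic subunit of casein kinase, at -5.11. In pyramidal against GABAergic neurons 1 of 17 was higher, the ubiquitin ligase gene Nedd4l at 3.49, and 8 were lower, with Bace1, the protease that cleaves beta subunits, at -6.46 (median -0.94). The backgrounds over all genes, in the same order, were 64.4% lower and 11% higher, 16.4% and 56.0%, 44.4% and 20.3%, and 64.2% and 13.3%.

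Potassium channel genes that shape the action potential, 16 of 17 in the table, were counted in the same way, beside the same shares of all genes. Purified against glia-cultured cells had 1 of 14 higher and 10 lower (median -2.99), near the 64.4% of all genes lower, from Kcnd3, an A-type channel, at 3.18 to Kcnab1, an accessory subunit, at -9.80. OCM-treated against purified cells had 7 of 13 higher and 2 lower (median 1.54), near the 56.0% of all genes higher, with Kcna1, an axonal delayed rectifier, at 7.64 and Kcnd3 at -4.10. OCM-treated against glia-cultured cells had 3 of 14 higher and 6 lower (median -0.58), beside 20.3% and 44.4% of all genes. Kcna6, a delayed rectifier, was at 2.48 and Kcnab1 at -5.55. Pyramidal against GABAergic neurons had 1 of 15 higher and 12 lower (median -3.32), beside 13.3% and 64.2% of all genes. Kcna4, an A-type channel, was at 5.39 and Kcnab1 at -9.80.

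Only Scn2a and Scn3a were above 0 in at least 14 of the 21 cells, the detection asked for when genes of similar pattern were sought. Among 1889 genes so detected with a mean of at least 50, Maged2 followed Scn2a most closely by rank (Spearman rho 0.69, and 0.54 after group means were removed), then Fdft1, the gene of squalene synthase (0.66 and 0.34), and Arfip2 (0.62 and 0.82). The Pearson r of log values was 0.62 for Maged2, 0.47 for Fdft1 and 0.96 for Arfip2. Scn2a was 0 in pyramidal cells 3 and 5 and 5.42 in purified cell 2, and the weight of these cells in r was not tested. Scn3a was followed by Gtf2a2, a general transcription factor subunit (rho 0.71, and 0.62 after removal), Rae1, an mRNA export factor (0.64 and 0.68), and Mrps11, a mitochondrial ribosomal protein (0.63 and 0.74). Scn2a and Scn3a had rho 0.44 with each other. These are descriptions over 21 cells that share groups, depth and detection, without a test. The rho of each gene with the number of genes above 0 per cell was 0.19 for Scn2a and 0.25 for Scn3a.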

How the data were processed

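Each neuron's contents were drawn into the patch pipette after recording. The cDNA was amplified from polyadenylated RNA with the SMART-Seq v4 kit, turned into libraries with Nextera XT and read from both ends on a NextSeq500, per the labels' protocols. The submitters' processing notes name the aligner STAR 2.4.0, the build rn6, and DESeq2, SAMtools, Picard and FastQC. The counting tool, annotation and strand rule were not given in the sources used here. A table deposited by the authors holds 1 signal value per gene and cell, never below 0 and named as DESeq2-normalized, and 0 value columns had no sample.

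In each cell 100% of values lay within 0.05 of a whole multiple of 1 step, from which whole reads and each cell's depth were recovered. No count test was made on them, since each group is 1 sample and cells are not replicates. No molecular identifiers are named, so exact binomial and Poisson intervals and the floor of 3 reads cover counting error only. Of rows sharing a symbol the one with the highest mean was kept, which left out 355 rows, and 18376 rows have no symbol. The files give loci in rn6 and the promoter entries are in GRCr8, and the builds were not mixed. The planned division by coding length was not made, because no length was at hand.

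Differences were taken between group means of log2(value + 1) over genes above 0 in at least 3 cells of the pair. The members and gene lists were chosen with earlier results of these data known. All 7 members are named, with the highest and lowest gene of each list per comparison, the 3 genes closest in rank to each member above 0 in at least 14 cells, and other Scn genes, of which 2 are not reported here. Genes outside these rules are markers. The alternatives tried were thinning, a pseudocount of 10 or of 0.1, equal totals or equal upper quartiles, the ratio of group means, medians, no filter, sums over the rows of a symbol, at least 10 reads for detection, cells of 1 title letter, each cell left out, and pyramidal cells 3 and 4 left out. The setting without the cells titled ech was chosen after seeing the data. All computations ran in Python 3.11.15 with pandas 2.3.3, numpy 2.4.6, scipy 1.17.1 and, for figures, matplotlib 3.10.9. Only part of them was first tested on simulated cells.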

Additional observations from a re-analysis of the deposited data

Results flagged for a closer look

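In each group of 5 or 6 cells, the highest and the lowest cell were compared with the range of the group, and in 13 of 30 such sets of values the highest cell stood far from the others. Chance alone marks about 1 in 20 groups of normally distributed values, and values with many zeros are not of that kind. In pyramidal neurons these were cell 1 for Scn1a (170), Scn2a (10680) and the sum of the 4 alpha genes (10862), cell 2 for Scn3a (153), cell 3 for Scn8a (14.7) and cell 5 for Scn2b (1888). Glia-cultured GABAergic cell 6 stood out for Scn3b (990) and cell 2 for Scn4b (1502). In purified neurons cell 4 stood out for Scn1a (10.3) and for Scn1a as a percentage of Scn1a plus Scn2a (0.403%), and cell 1 for Scn3b (199). OCM-treated cell 1 stood out for Scn3a (1605) and cell 5 for Scn3b (516). For 4 of these values, Scn1a, Scn8a and Scn2b in pyramidal and Scn3b in purified neurons, the other cells of the group were all at 0.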

How the results depend on the processing

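No paired analysis was possible because the cell numbers were given in accession order and pair nothing. Of 1361 values recomputed under 37 settings, 1310 moved by less than the spread between cells, or a count by less than 1.5 times, and 47 moved further. The 1310 are no measure of stability, since some settings could not move a value. Examples are a left-out cell of a group outside the comparison and sums over rows, as each member has 1 row. The spread is also wide: Scn2a with OCM against purified cells fell from 1.98 to 0.18 within its SD of 2.86. The remaining 4 were differences past the bound of 1 that changed sign, counted where the filter was passed. Differences within that bound have no settled direction: 33 of 120 recomputed values changed sign, all of Scn2a in purified against glia-cultured cells, of Scn3a among the GABAergic groups, or of Scn3b with OCM against glia, the lowest being -7.20 for Scn3b among cells titled S. Division by coding length was not run. The 4 past the bound were Scn2a with OCM against glia among cells titled S (-0.28), Scn2a (0.22) and Scn2b (0.12) in pyramidal against GABAergic neurons by the ratio of group means, and Scn3b in that pair among cells titled S (-0.50). Not counted, because the filter was then missed, were sign changes of Scn3b when 1 cell was left out. These were purified against glia without glia-cultured cell 6 (0.46) and OCM against purified without OCM-treated cell 5 (-0.34). Counts of members higher were 0 with OCM against glia among cells titled S and without cells titled ech, 1 (median over cells) and 5 (no filter) with OCM against purified, 1 by the ratio of means in purified against glia, and 0 in pyramidal neurons among cells titled S and among those titled P. Counts lower were 1 by the ratio of means with OCM against purified, 1 among cells titled S in purified against glia, and 1 among cells titled S and 3 by the ratio of means in pyramidal neurons. With 1 cell left out, members higher ran from 0 to 3 with OCM against glia, 1 to 4 with OCM against purified and 0 to 1 in purified against glia, and members lower from 0 to 1 with OCM against purified. In pyramidal neurons the beta to alpha ratio was 0.111 among cells titled S, 2.53 among those titled P, 0.0343 as the median within cells and 0.10 to 1.27 with 1 cell left out, and the Scn1a share was 0% among cells titled P, 0.391% as the mean of shares within cells and 0 to 1.39% with 1 cell left out. Among cells titled S, members above 0 numbered 4 in glia-cultured GABAergic cell 6 and averaged 3.50 over pyramidal cells 1 and 2. Cell 6 is the 1 glia-cultured GABAergic cell titled S, so each S value against that group rests on it. The 1 purified cell titled P had shares of 99.8% for Scn2a and 0.123% for Scn3a. Scaling to one upper quartile moved the all-gene medians to -2.53, -2.51, 1.76 and -0.78 for pyramidal, purified and OCM-treated against purified and glia-cultured cells, without moving any count of members by 1.5 times. The cause of these shifts was not tested. The small number of alpha reads limits the reading of pyramidal cells 3 and 5 and purified cell 2, which had 13, 0 and 4. Their totals were 8650220, 10543060 and 6282231 recovered reads, so they were not the shallowest cells.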
